A study of Homo sapiens with 8 samples.

Results

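Condensins are the ring-shaped protein machines that fold and compact chromosomes, and their 8 subunit genes were followed here in RMG1, an ovarian clear cell carcinoma line of human origin. The genes were chosen by name: NCAPH2, NCAPD3 and NCAPG2 of condensin II, NCAPH, NCAPD2 and NCAPG of condensin I, and SMC2 and SMC4, which both complexes share. All 8 were found among the 57736 gene IDs of the deposited table, and all 8 were among the 16657 genes that passed a filter on low counts. Total RNA had been sequenced in 4 groups of 2 libraries. ARID1A-knockout cells (made with CRISPR; labelled KO for ARID1A and WT for CAPH2) were compared with wild-type cells (WT for both genes). CAPH2-knockdown cells (an shRNA against CAPH2; labelled WT for ARID1A and KD for CAPH2) were compared with shRNA control cells (a control shRNA; WT for both genes). CAPH2 is another name of NCAPH2 and its protein. Whether a group was 1 clone or a pool, and which guide or hairpin was used, is not given in the sources used here.

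Each condensin is built on a pair of long SMC proteins, SMC2 and SMC4, whose ATPase heads are bridged by a kleisin subunit, NCAPH in condensin I and NCAPH2 in condensin II. A pair of HEAT-repeat subunits binds each kleisin: NCAPD2 and NCAPG in condensin I, NCAPD3 and NCAPG2 in condensin II. Condensin II is nuclear throughout the cell cycle and starts chromosome condensation in prophase, while condensin I is largely cytoplasmic until the nuclear envelope breaks down and then compacts chromosomes laterally. ARID1A binds DNA within SWI/SNF, a complex that moves nucleosomes, and is often mutated in ovarian clear cell carcinoma. The series concerns ARID1A and where condensin II sits on chromosomes, and the RNA data address the level of the subunit transcripts.

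Library totals were 35392307 and 37378691 counts in ARID1A-knockout cells, 24559547 and 27144974 in wild-type cells, 31791100 and 31562201 in CAPH2-knockdown cells, and 32831617 and 36731763 in shRNA control cells. ARID1A transcripts stood at 6.66 and 5.61 CPM (counts scaled to the size of each library with trimmed means of M values, TMM) in the knockout libraries, against 8.80 and 12.1 CPM in the wild-type libraries. The groups did not overlap, and the knockout level was 58.5% of wild type (log2 fold change −0.77, SE 0.16, edgeR adjusted p = 0.00274). ARID1A transcripts were thus still counted in the knockout libraries. Here and throughout, a gene was called changed at an adjusted p under 0.05 in edgeR's quasi-likelihood test with Benjamini-Hochberg adjustment over all genes tested. The 7 clear cell and epithelial markers with a row summed to 2249 to 2281 CPM in knockout, 2152 to 2261 in wild-type, 2191 to 2251 in knockdown and 2325 to 2345 CPM in control libraries. Within that list CDH1, or E-cadherin, rose in the knockout (0.96, SE 0.05) and the keratins KRT8 (−0.70, SE 0.05) and KRT7 (−0.52, SE 0.05) fell, while PAX8 fell in the knockdown (−0.49, SE 0.05) and NAPSA, low in all libraries, rose (0.85, SE 0.22; its call was lost in 3 of the 10 alternative settings). The 5 leukocyte markers summed to 4.05 to 5.13 CPM in knockout, 0.869 to 2.60 in wild-type, 1.83 to 2.45 in knockdown and 2.60 to 3.60 CPM in control libraries, with PTPRC at 2.25 and 1.98 CPM in the knockout against 0.0413 and 0 CPM in wild type, and CD3E at 0 in every library. The 6 fibroblast markers summed to at most 1.12 CPM in any library, LUM standing at 0.356 and 0.705 CPM in the knockout and at 0 elsewhere, and the 3 endothelial markers with a row to at most 0.124 CPM. The part of these differences in the results was not tested.

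The condensin transcripts differed widely in level. Per kilobase of the longest protein-coding transcript, wild-type cells held SMC4 at 95.4 ± 0.334 CPM per kb, NCAPG at 55.8 ± 2.69, NCAPH at 52.6 ± 2.81 and SMC2 at 35.4 ± 0.114 (SD, n = 2). Lower came NCAPD2 at 19.9 ± 2.58, NCAPG2 at 18.001 ± 1.50, NCAPH2 at 13.7 ± 1.09 and NCAPD3 at 5.28 ± 0.069 CPM per kb. The neighbours NCAPG and NCAPH, and NCAPD2 and NCAPG2, overlapped in their wild-type libraries; the other neighbours in this order did not. ARID1A-knockout cells kept the same order. In CAPH2-knockdown cells NCAPH2, at 4.27 ± 0.0839 CPM per kb, stood last, under NCAPD3 at 6.24 ± 0.0252. In shRNA control cells NCAPH (50.5 ± 0.860 CPM per kb) stood above NCAPG (48.4 ± 1.91). With coding length in place of transcript length, NCAPG2 stood above NCAPD2 in every group but the shRNA control, and with the union of exons NCAPG stood above SMC4 in every group but wild type.

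**Figure D1:**
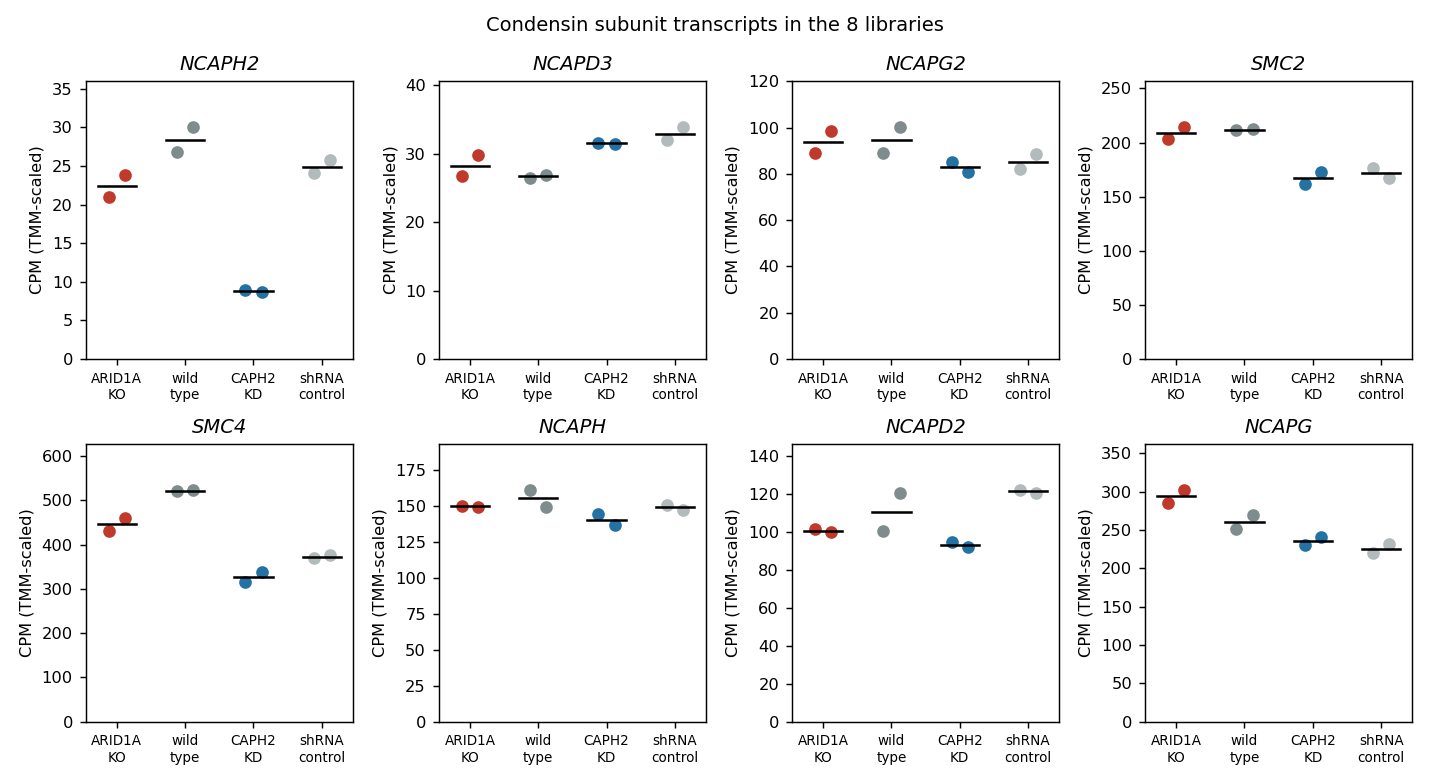
TMM-scaled CPM (vertical axes, each from 0) of the 8 condensin subunit genes in the ARID1A-knockout, wild-type, CAPH2-knockdown and shRNA control libraries; each point is 1 library and each bar the mean of 2. NCAPH2 lies at 8.98 and 8.74 CPM in the knockdown libraries and between 21.0 and 30.0 CPM in the other 6.

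Many mitotic genes carry a cell cycle genes homology region (CHR), with the letters TTTGAA, near their start, to which the DREAM and MMB complexes bind, and many also carry CCAAT boxes, bound by NF-Y. RefSeq promoter windows (GRCh38.p14, 250 bases before to 50 after each start) were at hand for 7 of the 8 genes; NCAPH2 had none. TTTGAA, read on both strands, was present in a window of 6 of these genes, all but NCAPH, against 15.2% of 35116 windows of all genes. The 7 genes had 10 windows between them, so a gene could match more than once. Counts per gene and shares per window are unlike measures, and a share per gene over all genes was not computed. CCAAT, on both strands and not overlapping TTTGAA in the stretches shown, was present for NCAPD3, NCAPH and NCAPD2, against 34.6% of all windows. The stretches around the CHR are shown for the 5 genes that hold it at or before the start. In NCAPG2 it lay 35 bases after the start, and its stretch is not shown. Capitals mark the CHR, which reads TTCAAA where it lies on the other strand, and in NCAPD2 a CCAAT box, which on the other strand reads ATTGG. The stretches are NCAPD3 at chr11:134223951-134224010 on the minus strand, and on the plus strand SMC2 at chr9:104094266-104094325, SMC4 at chr3:160399535-160399594, NCAPD2 at chr12:6493917-6493976 and NCAPG at chr4:17810904-17810963.
NCAPD3: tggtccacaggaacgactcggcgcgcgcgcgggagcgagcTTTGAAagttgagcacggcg
SMC2: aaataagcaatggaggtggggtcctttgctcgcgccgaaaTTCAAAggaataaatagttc
SMC4: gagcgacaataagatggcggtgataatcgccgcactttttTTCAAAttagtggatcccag
NCAPD2: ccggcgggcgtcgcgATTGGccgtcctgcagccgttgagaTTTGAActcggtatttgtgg
NCAPG: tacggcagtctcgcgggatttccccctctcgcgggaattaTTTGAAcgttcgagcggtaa
The first base of the CHR lay 3 bases before the start in NCAPD3 and SMC2, 35 in NCAPG, 75 in SMC4 and 145 in NCAPD2. A match of letters describes the window and is not a test of binding.

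ARID1A-knockout cells had less NCAPH2 and SMC4 RNA and more NCAPG RNA than wild-type cells. Of the 8 subunits 3 were called, 1 higher and 2 lower, in a comparison in which 34.5% of all genes tested were called (16.8% higher and 17.8% lower), so the share called among the subunits was near that of all genes. The same 3 had a p under 0.05 before adjustment, where 43% of all genes tested did. The kleisin NCAPH2 stood at 21.0 and 23.9 CPM in the knockout libraries, against 26.8 and 30.0 CPM in wild type. The groups did not overlap, and NCAPH2 fell to 78.9% of wild type (95% interval 68.5% to 90.9%; −0.34, SE 0.09, edgeR adjusted p = 0.0144). In bulk RNA, fewer cells of a kind and less RNA per cell cannot be told apart. The call was lost without knockout library 1 (−0.25, edgeR adjusted p = 0.133) or wild-type library 2 (−0.26, edgeR adjusted p = 0.0961); over 10 alternatives adjusted p ran from 0.00491 to 0.133.

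The other condensin II subunits did not pass in the knockout. NCAPD3, a HEAT-repeat subunit, stood at 26.7 and 29.8 CPM in the knockout, against 26.5 and 26.9 CPM in wild type (0.08, 95% interval −0.09 to 0.25). NCAPG2, the other HEAT-repeat subunit, stood at 89.2 and 98.4 CPM in the knockout, against 89.0 and 100.1 CPM in wild type (−0.01, 95% interval −0.18 to 0.15). For both genes the libraries of the groups overlapped.

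Of the shared ATPases, SMC4 stood at 431.2 and 460.6 CPM in the knockout, against 520.9 and 523.5 CPM in wild type. It fell to 85.4% of wild type with no overlap between the groups (−0.23, SE 0.05, edgeR adjusted p = 0.00700; without knockout library 1, −0.18 and 0.0848; 0.000673 to 0.0848 over 10 alternatives). SMC2, its partner in the ring, stood at 203.5 and 214.0 CPM in the knockout, on both sides of the 211.4 and 212.4 CPM in wild type (−0.02, 95% interval −0.15 to 0.10). The condensin I subunit NCAPG stood at 285.5 and 302.1 CPM in the knockout, against 251.3 and 269.1 CPM in wild type. NCAPG rose to 112.9% of wild type (0.17, SE 0.06, edgeR adjusted p = 0.0402), and the groups did not overlap. This call was lost without wild-type library 1 (0.12), knockout library 1 (0.22) or knockout library 2 (0.13) and in a fit of these 4 libraries alone (0.17), with edgeR adjusted p from 0.00915 to 0.252 over 10 alternatives.

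The kleisin of condensin I, NCAPH, did not pass in the knockout, at 150.3 and 149.3 CPM against 161.1 and 149.4 CPM in wild type (−0.05, 95% interval −0.18 to 0.07). Its partner NCAPD2 had even knockout libraries, at 101.3 and 99.9 CPM, and uneven wild-type libraries, at 100.3 and 120.6 CPM. NCAPD2 was not called (−0.14, edgeR adjusted p = 0.196), but passed without wild-type library 1 (−0.26, edgeR adjusted p = 0.00194) and stood at 0.00 without wild-type library 2. Over all 8 subunits the median log2 fold change was −0.04, against 0.00 for all genes tested. Groups did not overlap for 1 subunit that was higher and 2 that were lower, where 32.7% of all genes tested were higher and 31.9% lower in that way.

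CAPH2-knockdown cells had less RNA of the targeted kleisin and, by smaller amounts, of NCAPD2 and SMC4 than shRNA control cells. Of the 8 subunits 3 were called, all lower, the target NCAPH2 among them. Of all genes tested, 15.8% were called (7.62% higher and 8.22% lower). NCAPH2 stood at 8.98 and 8.74 CPM in the knockdown libraries, against 24.0 and 25.8 CPM in control libraries. The groups were far apart, and NCAPH2 fell to 35.6% of the control (95% interval 30.5% to 41.5%; −1.49, SE 0.10, edgeR adjusted p = 1.84e-06). The value stayed between −1.54 and −1.44 in 10 alternatives and passed in each of them. NCAPH2 was the target of the hairpin, so its fall checks the labels and adds nothing to the reading of the counts that include it. The 3 subunits called were also those with a p under 0.05 before adjustment, where 28.4% of all genes tested had one.

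Outside the target, NCAPD2, which binds the other kleisin NCAPH, stood at 94.4 and 91.9 CPM in the knockdown, against 121.9 and 120.4 CPM in the control. It fell to 76.9% of the control (−0.38, SE 0.08, edgeR adjusted p = 0.00515) with no overlap between the groups. The call was lost without knockdown library 2 (−0.36, edgeR adjusted p = 0.0552; 7.21e-07 to 0.0552 over 10 alternatives). SMC4 stood at 316.5 and 337.9 CPM in the knockdown, against 369.7 and 376.1 CPM in the control, again with no overlap. Its fall to 87.8% of the control (−0.19, SE 0.05, edgeR adjusted p = 0.0372) was lost when any of the 4 libraries was left out (−0.24 to −0.15, edgeR adjusted p 0.0645 to 0.233, and as low as 0.00752 in the other alternatives).

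The partners of NCAPH2 within condensin II did not pass in the knockdown. NCAPD3 stood at 31.7 and 31.5 CPM in the knockdown, just under the 32.0 and 33.9 CPM in the control (−0.06, 95% interval −0.23 to 0.10). NCAPG2 stood at 85.2 and 80.9 CPM in the knockdown, against 82.1 and 88.7 CPM in the control, with overlapping libraries (−0.04, 95% interval −0.20 to 0.12). A fall as large as that of NCAPH2 lies outside both intervals.

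Among the rest, SMC2 stood at 162.1 and 173.2 CPM in the knockdown, against 176.6 and 167.0 CPM in the control (−0.04, 95% interval −0.16 to 0.09). NCAPH stood at 144.6 and 136.7 CPM in the knockdown, against 151.0 and 147.4 CPM in the control, without overlap but not past the test (−0.08, 95% interval −0.21 to 0.04). NCAPG stood at 230.6 and 241.4 CPM in the knockdown, against 219.4 and 232.0 CPM in the control, with overlapping libraries (0.06, 95% interval −0.07 to 0.19). The median over the 8 subunits was −0.07, against 0.00 for all genes tested. Groups did not overlap for 5 subunits that were lower and 0 that were higher, where 29.2% and 29.8% of all genes tested did so. The target NCAPH2 is included in that median and among the 5.

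**Figure D2:**
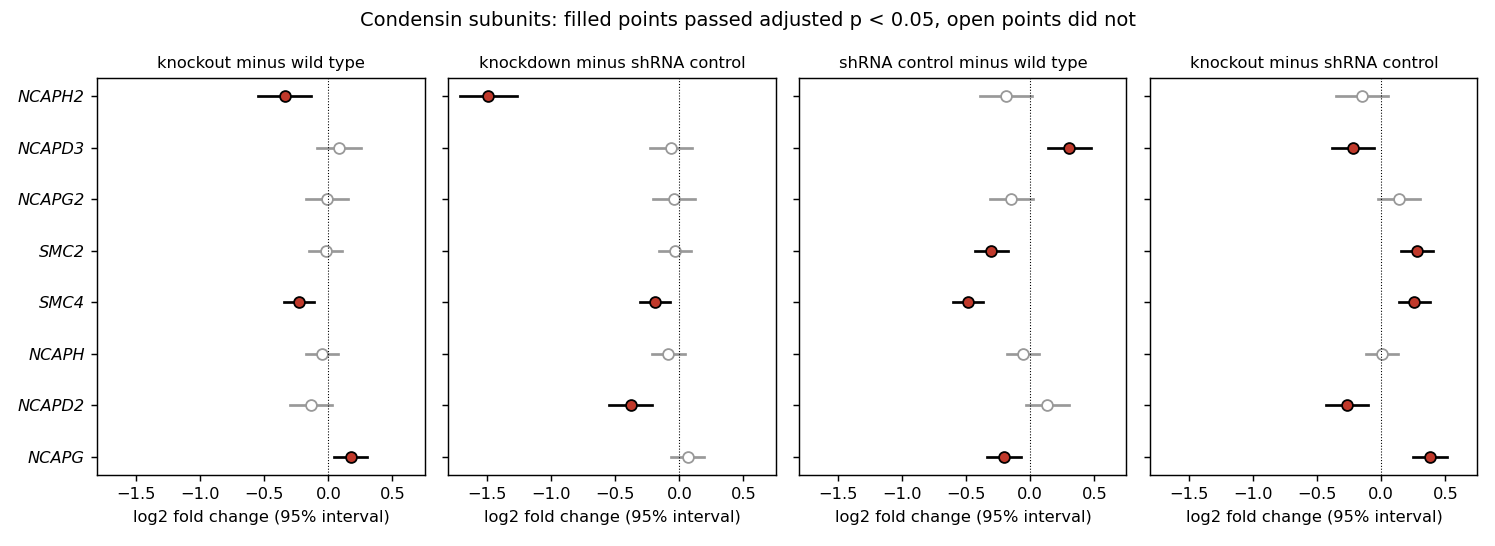
Log2 fold change (horizontal axes) with its 95% interval for each of the 8 subunits in 4 comparisons, fitted over all 8 libraries; filled points were called at an edgeR adjusted p under 0.05 and open points were not. NCAPH2 lies at −0.34 in the knockout and at −1.49 in the knockdown, and SMC4 changes side between knockout minus wild type (−0.23) and knockout minus shRNA control (0.26).

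The effects of the knockout and of the knockdown were then compared directly. Of the 8 subunits 1 was called, NCAPH2, whose log2 fold change was higher by 1.15 in the knockout than in the knockdown (SE 0.14, 95% interval 0.85 to 1.45, edgeR adjusted p = 8.44e-05); 26.3% of all genes tested were called (12.3% higher and 14% lower). It passed in 13 of 13 alternatives, at 1.05 to 1.24. For NCAPD2 the difference was 0.24 (95% interval 0.01 to 0.48) and missed the threshold after adjustment (edgeR adjusted p = 0.124; 2 of the 8 subunits and 36.4% of all genes tested had a p under 0.05 before it); without wild-type library 2 it passed (0.38, edgeR adjusted p = 0.00133; up to 0.282 over 13 alternatives). For SMC4, which fell in both comparisons, the difference was −0.04 (95% interval −0.21 to 0.13). The remaining differences lay between 0.01 for SMC2 and 0.15 for NCAPD3, and none passed.

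ARID1A and CAPH2 are labelled WT both in shRNA control cells and in wild-type cells, yet several subunits differed between these groups. Of the 8 subunits 4 were called, 1 higher and 3 lower in shRNA control cells, where 19.2% of all genes tested were called (9.13% higher and 10.1% lower). SMC4, at 369.7 and 376.1 CPM in the control against 520.9 and 523.5 CPM in wild type, stood at 71.4% of wild type (−0.49, SE 0.05, edgeR adjusted p = 1.43e-04), farther than in the knockout, and passed in 10 of 10 alternatives. SMC2 stood at 81.1% of wild type (−0.30, SE 0.06) and NCAPG at 86.8% (−0.21, SE 0.06), both lower in the control. The 4 were also those with a p under 0.05 before adjustment, as 32% of all genes tested were, and groups did not overlap for 1 subunit that was higher and 5 that were lower, where 28.8% and 28.7% of all genes tested did so. NCAPD3 was higher in the control, at 123.4% of wild type (0.30, SE 0.08). NCAPH2 was not called (−0.19, SE 0.09, edgeR adjusted p = 0.186). The call of NCAPD3 was lost without either control library, that of SMC2 without control library 2, and that of NCAPG without wild-type library 2 or either control library and in a fit of those 4 libraries alone.

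Set against shRNA control cells in place of wild-type cells, SMC4, SMC2, NCAPD3, NCAPG2 and NCAPH changed sign in the same knockout libraries. NCAPH2, NCAPD2 and NCAPG had the same sign against both groups. Of the subunits that changed sign, SMC4 was called against both groups, and NCAPG2 and NCAPH against neither. Against the control 5 of the 8 were called, 3 higher and 2 lower, where 41.8% of all genes tested were called (20.9% in each direction). Those 5 had a p under 0.05 before adjustment, as did 48.7% of all genes tested, and groups did not overlap for 4 subunits that were higher and 3 that were lower, where 35.8% and 36.8% of all genes tested did so. SMC4, lower than in wild type, was higher than in the control (0.26, SE 0.05, edgeR adjusted p = 0.00266). SMC2 was also higher (0.28, SE 0.06), as was NCAPG (0.38, SE 0.06, edgeR adjusted p = 3.38e-04), the 1 subunit that was called higher in the knockout against both groups. NCAPD3 (−0.22, SE 0.07) and NCAPD2 (−0.27, SE 0.07) were lower. NCAPH2 was not called, at 90.0% of the control (95% interval 78.3% to 103.6%; −0.15, edgeR adjusted p = 0.218). Both comparisons use the knockout libraries, and NCAPH2 was called lower in them against wild type and not against the control; that difference is the control minus wild type value above (−0.19), which was not called. NCAPD3 and NCAPD2 lost their calls with scaling by library size alone (−0.15 and −0.20), NCAPD2 also without any 1 of the 4 libraries, and NCAPD3 in DESeq2 (−0.21) and without knockout library 1 or either control library.

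The balance between the complexes was expressed as ratios within each library, per kilobase of transcript. The ratio of the kleisins, NCAPH2 to NCAPH, was 0.198 and 0.227 in the knockout libraries, against 0.236 and 0.285 in wild type. It was 0.0883 and 0.0909 in the knockdown libraries, against 0.226 and 0.249 in the control. Neither pair of groups overlapped, and an exact two-sided permutation test gave p = 0.33 for each, the smallest that 2 libraries against 2 allow. The knockout did overlap the control in this ratio (log2 difference −0.16, exact permutation p = 0.667). The control likewise overlapped wild type (−0.13, exact permutation p = 0.667). The share of condensin II in the summed transcripts of the 6 non-SMC subunits was 20.6 ± 1.02% in the knockout, against 22.3 ± 0.918% in wild type, and 18.6 ± 0.321% in the knockdown, against 22.3 ± 0.749% in the control (SD, n = 2 each; exact p = 0.33 for both).

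Within condensin II, NCAPH2 made up 31.2% and 31.8% of the 3 non-SMC transcripts in the knockout, against 36.8% and 37.2% in wild type. In the knockdown it made up 16.1% and 16.3%, against 34.5% in both control libraries. These shares differed little between libraries of a group and were lower in knockout than in wild-type and in knockdown than in control libraries. The SMC2 to SMC4 ratio was 0.431 and 0.424 in the knockout, against 0.371 and 0.370 in wild type, and 0.468 in both knockdown libraries, against 0.436 and 0.405 in the control. It was higher in every knockout library than in wild type and in every knockdown library than in the control, with SMC4 the member of the pair that was called. The knockout values lay between those of the control libraries (0.405 and 0.436), so in this ratio the knockout and the control overlapped. The summed SMC2 and SMC4 transcripts stood at 116.3 ± 5.05 CPM per kb in the knockout, against 130.8 ± 0.448 in wild type, and at 87.8 ± 4.06 in the knockdown, against 96.8 ± 0.307 in the control. The condensin I sum was 131.9 ± 2.08 CPM per kb in the knockout, against 128.3 ± 2.46 in wild type, and 115.1 ± 0.575 in the knockdown, against 120.8 ± 0.862 in the control.

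**Figure D3:**
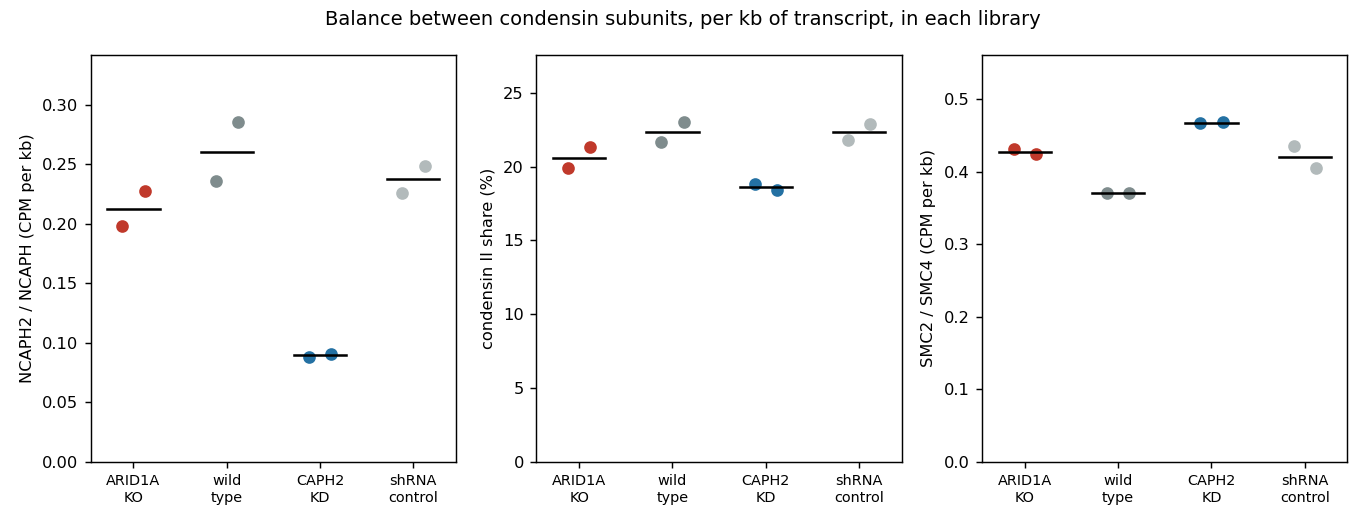
Ratio of NCAPH2 to NCAPH (left), share of condensin II among the 6 non-SMC subunits in percent (middle) and ratio of SMC2 to SMC4 (right), each from CPM per kb of transcript, in the 4 groups; each point is 1 library and each bar the mean of 2. The kleisin ratio averages 0.0896 in knockdown and 0.237 in control libraries.

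Several subunit genes share their locus with other genes, which matters for counts whose strand setting is not given in the sources used here. In GENCODE 29, TRIM59, a ubiquitin ligase gene on the opposite strand, shares 1561 exonic bases with SMC4, and LCORL, on the opposite strand, shares 1631 with NCAPG. TRIM59 had 1397 and 1492 counts in the knockout, against 326 and 406 in wild type, and rose (1.45, SE 0.09, edgeR adjusted p = 1.85e-07), the direction opposite to SMC4, which had 15732 and 17638 counts in the knockout and 12603 and 14454 in the smaller wild-type libraries. LCORL had 2283 and 2560 counts in the knockout, against 1098 and 1211 in wild type, and rose (0.54, SE 0.08), as NCAPG did, which had 10417 and 11567 counts in the knockout, against 6081 and 7430 in wild type. Neither overlapping gene was called in the knockdown (−0.09 for TRIM59 and −0.05 for LCORL). SCARNA10, a small RNA within NCAPD2 on the same strand, had 2036 and 2013 counts in the knockout, against 1420 and 2195 in wild type, and its call (−0.35, edgeR adjusted p = 0.0274) was lost in 5 of 10 alternatives. IFT80 shares 607 exonic bases with SMC4, MRPL51 486 with NCAPD2 and VPS26B 249 with NCAPD3, all on the opposite strand, and none of them was called in the knockout or the knockdown. JAM3, with 465 exonic bases shared with NCAPD3, had at most 1 count in any library. NCAPH2, NCAPG2, SMC2 and NCAPH overlap no other gene in that annotation. Reads of overlapping genes cannot be told apart without strand, so the values of SMC4 and NCAPG are uncertain.

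The genes next to each subunit gave the local background in the knockout. The 40 nearest tested genes around SMC4 on chromosome 3 had a median of 0.45 in knockout minus wild type, against −0.23 for SMC4 itself. Of these 40, 8 were called higher and 2 lower, where 16.8% of all genes tested were called higher and 17.8% lower. With the 20 nearest protein-coding genes on each side, a wider stretch, the median was 0.19. On chromosome 11 the 24 neighbours of NCAPD3 had a median of −0.39, with 2 called higher and 10 lower, against 0.08 for NCAPD3; SNX19, the nearest on one side, fell (−0.35, SE 0.09; not called without knockout library 2). The 34 neighbours of NCAPH2 on chromosome 22 had a median of −0.12, with 2 called higher and 7 lower, and its nearest genes LMF2 (−0.33) and SCO2 (−0.19) were not called. Around the other 5 subunits the medians lay between −0.03 for NCAPH and 0.20 for SMC2. Called higher and lower were 11 and 7 of the 40 neighbours of SMC2, 8 and 9 of 40 for NCAPG, 4 and 2 of 22 for NCAPG2, 3 and 2 of 40 for NCAPH, and 2 and 5 of 40 for NCAPD2. DCAF16, next to NCAPG, rose (0.42, SE 0.08). It was also called higher in the shRNA control than in wild type (0.46, SE 0.09) and not called in knockout minus control (−0.04). Next to NCAPG2, DNAJB6 rose (0.19, SE 0.05) and ESYT2 fell (−0.23, SE 0.07), both calls that were lost in several alternatives. In the knockdown the medians of neighbours lay between −0.08 and 0.11, with −0.06 around NCAPH2, against −1.49 for NCAPH2 itself.

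**Figure D4:**
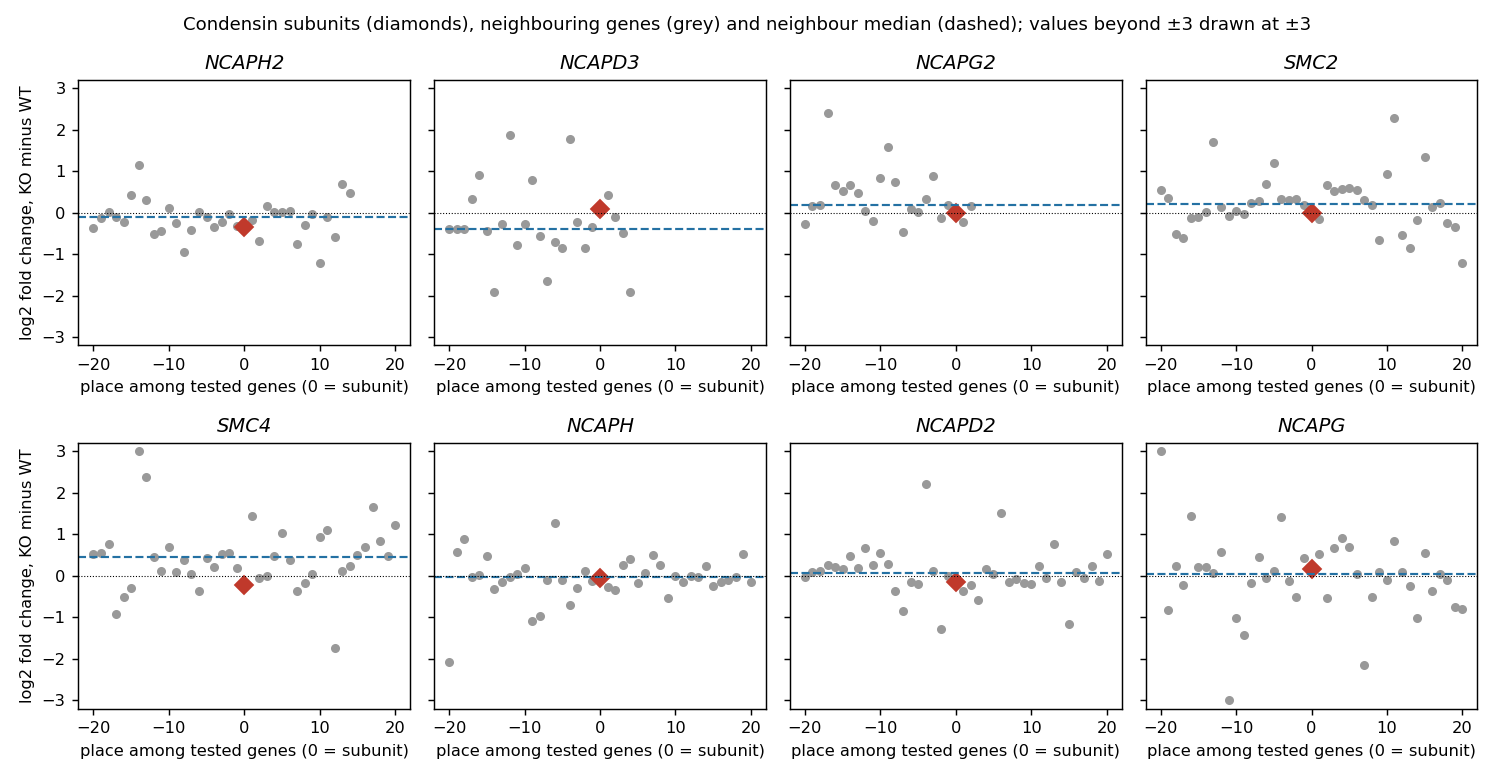
Log2 fold change in knockout minus wild type (vertical axis, values beyond 3 drawn at 3) of each subunit (diamond) and of up to 20 tested genes on each side in chromosomal order (grey points, horizontal axis as place from the subunit); the dashed line is the median of the neighbours. SMC4 (−0.23) lies under a neighbour median of 0.45 and NCAPD3 (0.08) above one of −0.39.

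Condensins act in mitosis, so genes that act on them and genes of neighbouring processes were set beside them. Of all genes tested, 16.8% were called higher and 17.8% lower in the knockout, and 7.62% higher and 8.22% lower in the knockdown. The 28 genes of a G2/M list had 14 members higher and 2 lower in the knockout (median 0.18, against 0.00 for all genes tested). UBE2C, a ubiquitin-conjugating enzyme of mitotic exit, stood at 48.3 and 53.6 CPM in the knockout, against 32.4 and 31.4 CPM in wild type (0.68, SE 0.07). ECT2, an exchange factor needed for cytokinesis, stood at 668.8 and 694.9 CPM in the knockout, against 492.9 and 489.0 CPM in wild type (0.47, SE 0.05). MKI67, which coats mitotic chromosomes and marks proliferating cells, fell, at 211.2 and 191.8 CPM in the knockout against 376.9 and 382.1 CPM in wild type (−0.91, SE 0.06). The other member that fell was KIF11, a spindle kinesin (−0.35, SE 0.05), named after its value was seen.

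In the knockdown the same list had 15 members lower and 0 higher in edgeR and 16 lower and 0 higher in DESeq2 (22 of the 28 had an unadjusted p under 0.05; median −0.21, against 0.00 for all genes tested). ECT2 fell there (−0.42, SE 0.05), at 308.7 and 311.7 CPM in the knockdown against 417.1 and 412.4 CPM in the control. MKI67 (−0.45, SE 0.06) and TOP2A, the topoisomerase that untangles sister chromatids (−0.22, SE 0.04), fell as well. Without single libraries the count in the knockdown was between 2 (control library 1 left out) and 10 (control library 2 left out); it was 6 with knockdown library 1 and 3 with knockdown library 2 left out, while the median stayed between −0.23 and −0.19. In the knockout the count of higher members was 9 without knockout library 2 and 9 in a fit of the knockout and wild-type libraries alone, with a median between 0.13 and 0.22.

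Of 14 genes known to act on condensins or beside them on mitotic chromosomes, 4 were higher (among them TOP2A, and CCNB1 and MCPH1, both named after their values were seen) and 2 lower (MKI67 and CSNK2A1) in the knockout, and 0 were higher and 6 lower in the knockdown, in edgeR and in DESeq2 (8 had an unadjusted p under 0.05). CDK1, CCNB1, PLK1, AURKB, TTK, TOP2A and MKI67 stand on both this and the G2/M list, so the counts of these lists are not independent. CSNK2A1, the catalytic subunit of casein kinase 2, which phosphorylates condensin I, stood at 215.0 and 210.7 CPM in the knockout, against 275.2 and 284.2 CPM in wild type (−0.39, SE 0.05). TOP2A rose in the knockout (0.23, SE 0.04), at 1632 and 1640.3 CPM against 1418 and 1365 CPM in wild type. CCNB1, the cyclin of the mitotic kinase CDK1, fell in the knockdown (−0.31, SE 0.06), a call lost without control library 1 or knockdown library 2, as that of TOP2A was. The count of higher members in the knockout was 2 in DESeq2, 2 without a low-count filter, 2 without knockout library 1 and 1 without knockout library 2 or in a fit of the knockout and wild-type libraries alone. In the knockdown the count of lower members was 2 without control library 1 or knockdown library 2 and 3 without knockdown library 1.

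The related SMC complexes were mostly lower where they were called in knockout minus wild type and in knockdown minus control. In the knockout against the shRNA control, 2 cohesin genes were higher and 4 lower, and 4 SMC5/6 genes were higher and 0 lower. Of all genes tested, 20.9% were called in each direction there. In control minus wild type each list had 4 genes lower and 0 higher, where 9.13% of all genes tested were called higher and 10.1% lower. Against wild type in the knockout and against the control in the knockdown, the shares called in either direction were near those of all genes tested (34.5% and 15.8%). Of 11 cohesin genes, 4 were lower and 0 higher in the knockout: WAPL, which releases cohesin from chromatin (−0.47, SE 0.06), at 255.6 and 247.3 CPM against 367.7 and 327.5 CPM in wild type, STAG1, a core subunit (−0.34, SE 0.06), NIPBL, the loader (−0.37, SE 0.06), and SMC3, an ATPase (−0.37, SE 0.08), named after its value was seen. DESeq2 called 4 lower as well, and the count was 6 without wild-type library 2. In the knockdown 2 were lower and 0 higher, STAG1 (−0.25, SE 0.06) and RAD21, the kleisin (−0.18, SE 0.06), and 3 had an unadjusted p under 0.05. The RAD21 call was lost in 7 of 10 alternatives, among them the replicate block, RLE and library size alone, each of which left a count of 1. The count was 1 without knockdown library 1 and 0 without either control library or knockdown library 2, and DESeq2 called 2. Of 8 genes of the SMC5/6 complex and its loaders, 1 was higher and 2 lower in the knockout. SLF2, a recruiting factor, fell there (−0.52, SE 0.05), as did NSMCE4A, a kleisin (−0.38, SE 0.07), and SLF1, the partner of SLF2, rose (0.26, SE 0.07; lost without knockout library 2). In the knockdown 1 was lower and 0 higher in edgeR and in DESeq2 (3 had an unadjusted p under 0.05): SLF2 (−0.21, SE 0.05), whose call was lost without any 1 of those 4 libraries.

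The G1/S genes that were called were all lower in the knockout against wild type and went both ways in the knockdown. Of 21 tested, 10 were lower and 0 higher in the knockout in edgeR and 9 lower and 0 higher in DESeq2 (12 with an unadjusted p under 0.05; median −0.21, against 0.00 for all genes tested). PCNA, the sliding clamp of DNA replication, stood at 287.7 and 308.4 CPM in the knockout, against 406.6 and 416.6 CPM in wild type (−0.47, SE 0.05). MCM4, a subunit of the replicative helicase (−0.28, SE 0.06), and RRM2, a subunit of ribonucleotide reductase (−0.24, SE 0.05), fell too. The count was 5 without knockout library 1 and 6 without knockout library 2. Set against the shRNA control, the knockout had 3 members higher and 4 lower (median −0.06). Of all genes tested, 20.9% were called in each direction there. In control minus wild type 6 members were lower and 0 higher, where 9.13% of all genes tested were called higher and 10.1% lower. In the knockdown 2 were higher, RRM2 (0.24, SE 0.05) and CDC45, a helicase factor (0.26, SE 0.06), and 2 lower, MCM7, another helicase subunit (−0.20, SE 0.06), and TYMS, thymidylate synthase (−0.49, SE 0.14), named after its value was seen. The calls of RRM2, CDC45 and MCM7 were lost in 3, 4 and 5 of 10 alternatives, all of them fits without a single library except scaling by library size alone for MCM7.

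The subunits and regulators of the DREAM and MMB complexes, which bind the CHR, had 3 of 13 members lower and 0 higher in the knockout, in edgeR and in DESeq2 (5 with an unadjusted p under 0.05), and 5 lower without wild-type library 1. These were TFDP2, an E2F partner (−0.32, SE 0.05), and LIN52 (−0.39, SE 0.08) and LIN54 (−0.28, SE 0.06), both of the core shared by DREAM and MMB. Set against the shRNA control, the knockout had 4 members higher and 4 lower, where 20.9% of all genes tested were called in each direction. In that comparison the G2/M list had 15 higher and 2 lower, and the 14 genes acting on condensins 6 higher and 2 lower. In the knockdown 2 were lower and 0 higher in both tools (4 with an unadjusted p under 0.05): TFDP2 (−0.34, SE 0.05), at 161.5 and 157.2 CPM against 202.6 and 200.05 CPM in the control, and FOXM1, a mitotic transcription factor (−0.43, SE 0.09), at 15.9 and 14.1 CPM against 19.3 and 21.0 CPM in the control. The FOXM1 call was lost without control library 2 or knockdown library 2. Of the 6 lists, the shares called in the knockout can be read against 34.5% of all genes tested and those in the knockdown against 15.8%; the lists were not tested as sets.

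**Figure D5:**
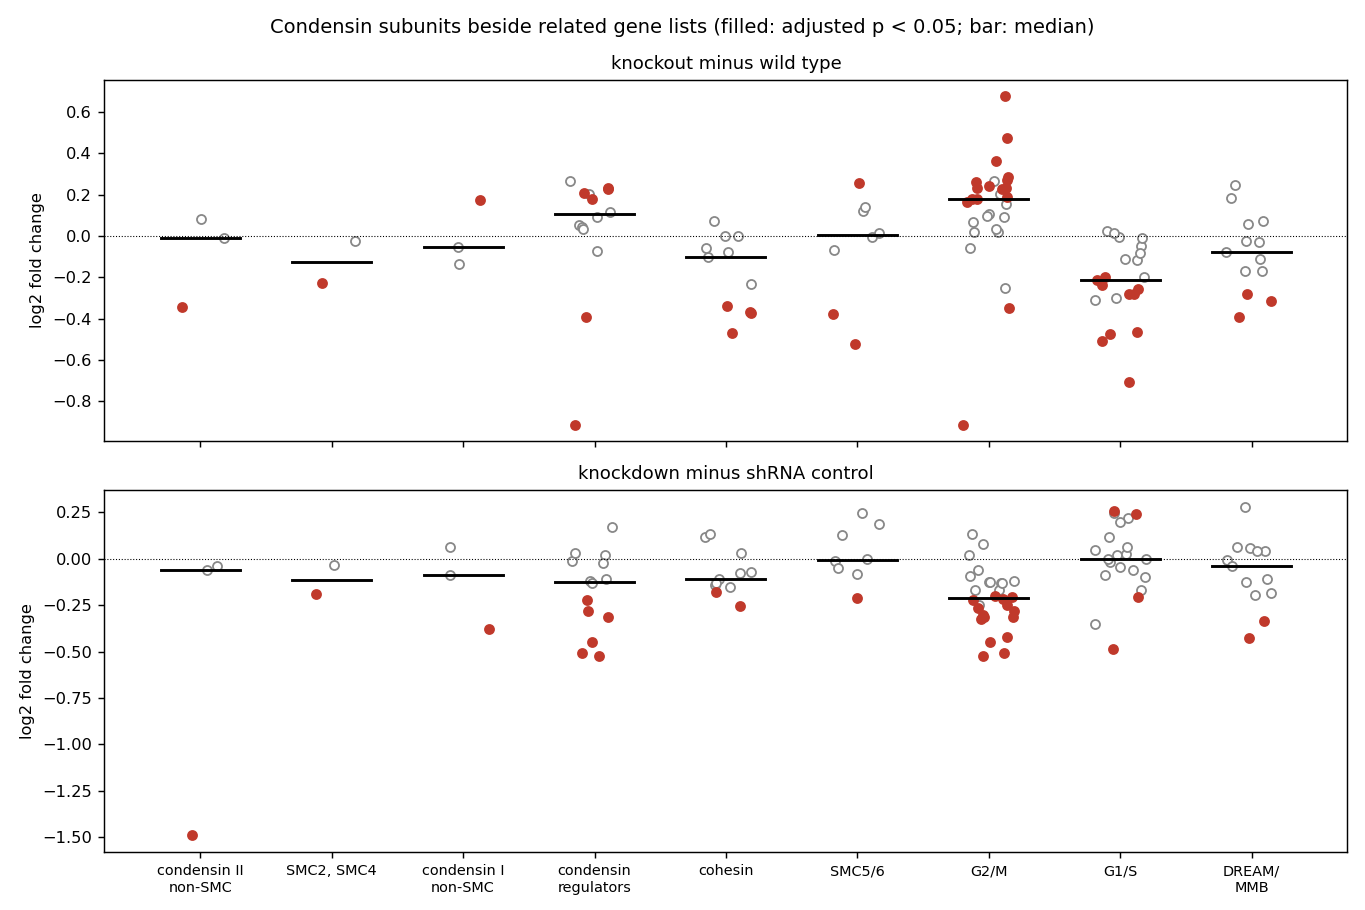
Log2 fold change (vertical axes) of the condensin subunits and of 6 related gene lists in knockout minus wild type (top) and knockdown minus shRNA control (bottom); each point is 1 gene, filled where called at an edgeR adjusted p under 0.05, and each bar is the median of the list. The G2/M median lies at 0.18 in the knockout and at −0.21 in the knockdown.

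The subunits did not share a single profile over the 8 libraries. As a description over libraries of 4 conditions, log2 CPM of SMC2 and SMC4 had a Pearson correlation of 0.934, while NCAPD3 ran against both (−0.852 with SMC2 and −0.804 with SMC4) and NCAPD2 and SMC2 had a value near 0 (0.031). NCAPH2 was closest among the subunits to SMC4 (0.787) and NCAPH (0.751). Among 7787 protein-coding genes of at least 10 CPM, the profiles most like that of NCAPH2 were CDK17 (0.989), CYP51A1 (0.988), ZNF114 (0.986), PSTPIP2 (0.986) and JADE1 (0.985). CDK17, a kinase, stood at 181.2 and 183.4 CPM in the knockout, against 205.7 and 208.6 CPM in wild type, and at 119.5 and 114.9 CPM in the knockdown, against 177.3 and 185.0 CPM in the control. PSTPIP2 stood at 57.6 and 56.4 CPM in the knockdown, against 134.5 and 141.5 CPM in the control, and between 132.5 and 141.8 CPM in the other 4 libraries. For the mean of the condensin I subunits the closest were RGS20 (0.995), CPVL (0.992), FRYL (0.990), CLIP4 (0.989) and NUP205 (0.989). The condensin I subunits themselves had low correlations with one another: 0.313 for NCAPH and NCAPD2, 0.189 for NCAPH and NCAPG, and −0.234 for NCAPD2 and NCAPG. Their mean is therefore not the profile of any single subunit. With 8 libraries in 4 groups, a high value can rest on 1 group.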

How the data were processed

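RNA of 8 libraries was measured. Trizol, DNase and the TruSeq Total RNA kit were used to make the libraries, per the labels' protocols. The authors deposited expected counts per Ensembl gene, 1 column per library. RSEM 1.2.12, Bowtie2 (no version given) and hg19 are named, per the submitters' processing notes. RSEM divides reads that match several genes, so overlapping genes and copies are uncertain. Values were rounded to whole numbers. Symbols came from a names table (51959 of 57736 IDs) and GENCODE 29 (342 more). GENCODE 29 (GRCh38) gave lengths, gene order and overlaps, and RefSeq (GRCh38.p14) gave promoter windows.

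Testing used R 4.3.3 and edgeR 4.0.16: filterByExpr by group (16657 genes kept), TMM scaling, and a quasi-likelihood test of group means fitted to all 8 libraries, with Benjamini-Hochberg adjustment and a threshold of 0.05. Each SE is the size of the log2 fold change divided by the root of its F. Alternatives were DESeq2 1.42.0, its size factors (RLE), library size alone, no filter, a replicate block, fits of only the groups compared, and each library left out in turn. The fit was tested on simulated data with known changes. For knockout minus wild type it recovered 49% of genes changed by 0.5 (log2) and 66.3% of those changed by 1. For knockdown minus shRNA control it recovered 48% and 65.6%. Unchanged genes called were 12 in the knockout simulation and 7 in the knockdown simulation. The knockout simulation changed 96 genes by 0.5 and 98 by 1 among 16146, a far smaller share than was called in the data. The adjustment depends on that share, so these rates need not hold for the data. Replicates correlated at 0.981 to 0.987 (log2 CPM) and differed by more than sampling noise (chi-square per degree of freedom 3.53 to 14.1). No label says that the libraries of a group come from separate cultures, so the p-values may cover technical spread alone. No batch is labelled. Named genes were the 8 subunits, ARID1A, overlapping and nearest genes, the 5 closest profiles for NCAPH2 and for condensin I, and up to 3 called genes per list with the smallest p in knockout minus wild type and in knockdown minus shRNA control. The members and lists were chosen with earlier results of these data known. Some listed genes are not reported here.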

Additional observations from a re-analysis of the deposited data

Results flagged for a closer look

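The effect of ARID1A knockout on NCAPH2 and the effect of CAPH2 knockdown on it differed, by 1.15 on the log2 scale (SE 0.14, edgeR adjusted p = 8.44e-05): NCAPH2 stood at −0.34 against wild type in the knockout, lower in 2 of 2 knockout libraries, and at −1.49 against the shRNA control in the knockdown, lower in 2 of 2 knockdown libraries. The effects on ARID1A itself also differed, by −0.67 (SE 0.22, edgeR adjusted p = 0.0443), with −0.77 in the knockout and −0.11 in the knockdown. Each gene is the target of 1 of the 2 treatments.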

How the results depend on the processing

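Leaving out 1 library moved the number of subunits called from 3 to between 0 and 3 in knockout minus wild type (0 without knockout library 1), from 3 to between 1 and 2 in knockdown minus control (1 without knockdown library 2), from 1 to between 1 and 2 for the difference between both effects (2 without wild-type library 2), from 4 to between 1 and 5 in control minus wild type (2 and 1 without control libraries 1 and 2), and from 5 to between 3 and 4 in knockout minus control. With library size alone the last was 3. Replicate numbers did not pair the libraries (correlation of deviations −0.0239 to 0.0296), and with the replicate block the counts were 3, 3, 1, 4 and 5, as without it. Uncalled subunits changed sign: with library size alone NCAPG2 and SMC2 in the knockout stood at 0.025 and 0.016. Leaving out single libraries, the ranges in knockout minus wild type were −0.10 to 0.078 for NCAPG2, −0.059 to 0.015 for SMC2, −0.10 to 0.00035 for NCAPH and −0.26 to 0.0041 for NCAPD2. In knockdown minus control they were −0.10 to 0.017 for NCAPG2 and −0.083 to 0.0039 for SMC2, and in knockout minus control −0.012 to 0.021 for NCAPH. For the difference they were −0.056 to 0.12 for NCAPG2, −0.028 to 0.060 for SMC2, −0.087 to 0.0093 for SMC4 and −0.020 to 0.086 for NCAPH. With the union of exons as length the kleisin ratio was 0.155 in knockout, 0.190 in wild-type, 0.0654 in knockdown and 0.173 in control cells, and the condensin II share 16.3%, 17.8%, 14.7% and 17.7%. With coding length the ratios were 0.183, 0.224, 0.0771 and 0.204 and the shares 19.6%, 21.2%, 18.03% and 21.2%. A fit of only the groups compared cannot be made for the difference, and a group left with 1 library is assumed to vary like the others. With 10 genes on each side the neighbour medians in the knockout were 0.32 for SMC2, 0.30 for SMC4 and −0.14 for NCAPD2, and with the nearest 20 protein-coding genes on each side that of SMC4 was 0.19. The causes were not tested. A single count is worth 0.0261 to 0.0413 CPM. Counting error is larger where counts are few, as for NCAPH2 with 285 and 271 counts in the knockdown libraries. The 2 libraries per group also limit precision.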
